A study of Solanum tuberosum with 22 samples.

Results

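Potato tubers of 1-5 mm, the smallest size class sampled, were compared with stolons, the underground shoots on whose tips tubers form. Transcript levels were measured on 2-colour spotted arrays of 32448 spots, each array setting 1 sample against a pool of RNA. The comparison uses 4 of the 22 arrays, 2 of tubers of 1-5 mm and 2 of stolons that had formed no tuber, all from growth chamber plants. Replicates were sets of 10 plants grown one after the other in the same chamber. The pool, common to all 12 growth chamber arrays, held RNA of the 6 sampled stages, stolons and tubers of 1-5, 6-10, 11-15, 16-25 and 26-35 mm. The stolons alone were labelled from amplified cRNA, and the tubers from total RNA. An effect of tissue and an effect of amplification therefore cannot be told apart in any difference between tubers and stolons given here. Of the 32448 spots, 11136 had a value on all 4 arrays, and 6926 of those (62.2%) differed in the same direction in both replicates.

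Tubers form when the tip of a stolon stops elongating and the cells behind it divide, swell and fill with starch and storage protein. Gibberellins keep a stolon elongating, and their inactivation by gibberellin 2-oxidases accompanies tuber onset. BEL5, a homeodomain transcription factor whose mRNA moves through the phloem from leaves to stolons, promotes tuber formation. Patatin, a vacuolar glycoprotein with lipid acyl hydrolase activity, and protease inhibitors of the Kunitz type are the main proteins that a tuber stores.

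The values are log2 ratios of sample over pool, so that 0 means the level of the pool and a difference of 1 is a 2-fold difference. Replicates had opposite dyes, and the values of replicate 2 were multiplied by -1 so that both replicates read sample over pool. The order of sample and pool in the ratio is not given in the sources used here, and this direction is likely and not settled. With it, each of the 4 arrays had between 197 and 389 values more than 6-fold below the pool and at most 43 more than 6-fold above it, and a stage that makes up 1 of 6 equal shares of a pool cannot exceed it 6-fold. This bound assumes equal shares and like labelling of sample and pool. The stolons alone were amplified, so it need not hold on the stolon arrays. The transcript eIF-5A-1/2 lay at -1.12 to -3.32 on all tuber arrays, yet only at 0.06 and 0.53 in stolons. Equal shares would average to the pool, so equal shares and like labelling do not both hold for this transcript. The bound is therefore a weak guide to the direction. Patatin is also lowest in stolons with this direction, which makes the direction of the storage protein genes no independent result. After turning, the tuber replicates correlated at 0.43 over spots and the stolon replicates at 0.63, whereas tubers and stolons of the same dye correlated at -0.43 and -0.31. With the other direction every sign below turns, and so do the counts and shares of higher and lower spots, while sizes and p-values stay as they are. Each array had values for 44.2% to 48.9% of the spots, and with 2 arrays a group the precision is limited throughout.

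In tubers of 1-5 mm the transcripts of patatin, the Kunitz-type protease inhibitor KTI-C and, at 1 of 3 spots, the sucrose synthase SS16 were higher than in stolons by between 6.18 and 6.91 on the log2 scale, with stolon replicate 1 at the lowest deposited ratio for each of these genes. BEL5 and a gibberellin 2-oxidase were higher by 3.12 and 2.97, and a translation factor, an aquaporin-like protein and TCTP were lower; the calls of these 5 genes and of KTI-C were lost with the 4 arrays alone. Of the 11136 spots, 688 (6.18%) passed an adjusted p under 0.05 with limma, of which 455 (4.09%) were higher and 233 (2.09%) lower in the tubers. All 688 differed in the same direction in both replicates, beside 62.2% of all tested spots, and the threshold itself favours such spots. With the direction turned, 233 would be higher and 455 lower. The spots that were higher differed by a median of 2.85 (7.22-fold) and at most 8.59, and 211 of them by more than 8-fold. The spots that were lower differed by a median of 2.02 (4.06-fold), and 34 of them by more than 8-fold. The count of 688 rests on the spread of all 12 growth chamber arrays. The tuber classes deviated alike between replicates, so these arrays are not independent measures of that spread. The SE and p-values of this fit treat them as independent. A fit to the 4 arrays alone called 58 spots, 55 of them among the 688, and leaving out 1 array gave 40 spots (without tuber replicate 1), 130 (without tuber replicate 2), 395 (without stolon replicate 1) or 38 (without stolon replicate 2). With the replicate as a block, limma called 2143 spots (19.2%), 1260 higher (11.3%) and 883 lower (7.93%), among them all 688. The block describes a deviation that tuber classes share and from which the stolons differ. Deviations from the class means correlated between 0.85 and 0.87 between 1-5 mm tubers and each larger class, and at -0.40 between 1-5 mm tubers and stolons. This fit pools the spread of the stolons with that of the tuber arrays. P-values with the block may therefore be too small for differences from stolons, here and below.

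The direction of large differences in 1 replicate was mostly found in the other. Of 198 spots that were more than 16-fold higher in tubers in replicate 1, 97.5% were higher in replicate 2, against 51.7% of all 11136 spots. Of 131 spots that were more than 8-fold lower in replicate 1, 92.4% were lower in replicate 2, against 47.8% of all spots. At more than 2-fold higher in replicate 1 the share was 75.0% of 2436 spots. Of spots that were higher in replicate 2, by more than 16-fold at 156 spots, 8-fold at 351 and 2-fold at 2181, 91.7%, 82.1% and 67.1% were higher in replicate 1, against 49.5% of all spots. Of 150 spots more than 8-fold lower in replicate 2, 88.7% were lower in replicate 1. Over all 11136 spots the differences in the replicates correlated at 0.49, across spots that share arrays and, for duplicates, a clone. Called spots that were higher had a median of 1.13 in the tubers and -1.64 in the stolons, and 94.5% of them lay above the pool in tubers and 0% in stolons. Called spots that were lower had a median of -1.75 in the tubers and 0.33 in the stolons. These positions around the pool are no separate result, since the spots were called by the difference between the same values.

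**Figure D1:**
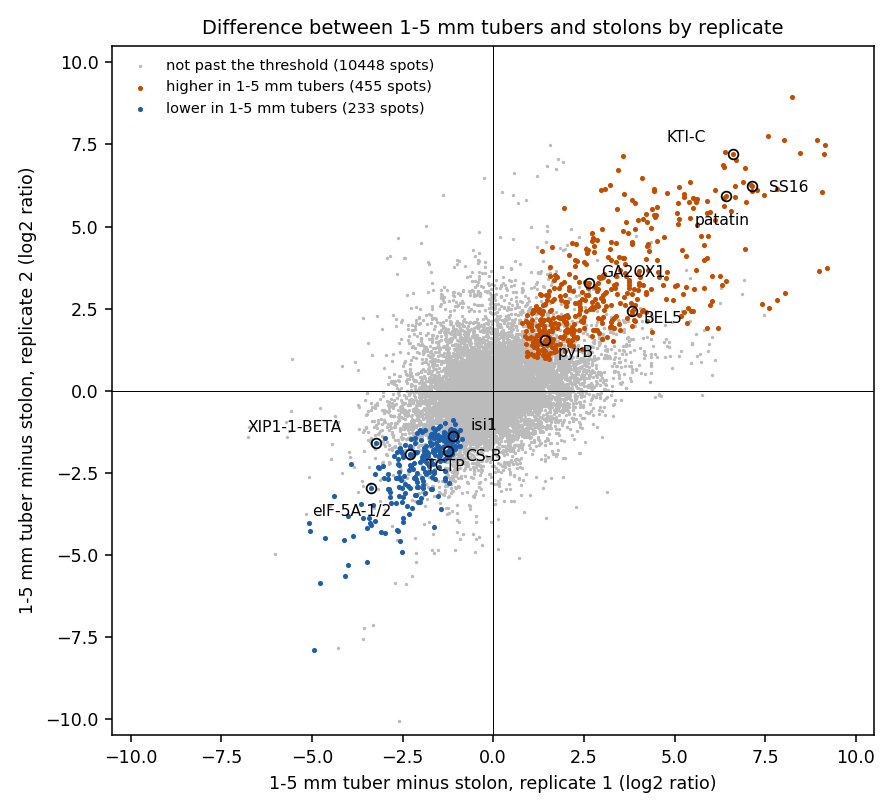
Each point is 1 of 11136 spots, with the difference of 1-5 mm tubers minus stolons (log2 ratio) in replicate 1 on the x axis and in replicate 2 on the y axis. The 455 spots called higher lie in the upper right and the 233 called lower in the lower left, and black rings mark the genes with a readable name that passed the threshold.

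Only 1248 of the tested spots were listed with a single gene, 369 genes in all, of which 161 have a readable name. Of these spots 50 passed the threshold, or 4.01%, beside 6.18% of all spots, and 638 called spots had no single gene. The 50 spots belonged to 16 genes that were higher and 13 that were lower, of which 28 are named here. Of these 28, 5 passed with the 4 arrays alone, and 13 passed without stolon replicate 1, 8 without tuber replicate 2 and 4 each without tuber replicate 1 or stolon replicate 2. Several of the named genes belong to multigene families, whose copies a cDNA spot may not separate, and duplicate spots of a clone share their source. In whole tubers and stolons, fewer cells of a type and less RNA per cell cannot be told apart.

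Among the storage proteins and protease inhibitors, 7 of 16 tested spots were higher in the tubers, all of patatin and KTI-C, and 0 were lower, beside 4.09% and 2.09% of all spots. Patatin, the main storage protein, had values of -0.23 and -0.99 in 1-5 mm tubers, against -6.64 and -6.93 in stolons. The tubers of this size were themselves a little below the pool. The difference was 6.18 ± 0.43 (SE, limma, adjusted p = 0.00426), from the 1 of 6 patatin spots that had all 4 values, and it passed without any 1 of the 4 arrays. KTI-C, an inhibitor of the Kunitz family, had values of -0.04 and -1.36 in 1-5 mm tubers, against -6.64 and -8.57 in stolons. Its difference was 6.91 ± 0.91 (SE, limma, adjusted p = 0.0139), and all 6 tested spots, from 3 clones, were called higher. Leaving out 1 array moved it from 5.94 to 7.87, and it passed only without stolon replicate 1 (7.87). The value of -6.64 is the log2 of the lowest deposited ratio, 0.01, which stolon replicate 1 reached at 39 spots, so those values carry a coarse rounding. API, an aspartic protease inhibitor, was low in both tissues, at -2.84 and -5.12 in tubers and -3.47 and -7.97 in stolons. Its difference of 1.74 ± 1.32 (SE, limma, adjusted p = 0.482, and 0.201 with the replicate block) did not pass the threshold. The spots of PIN-II, a serine protease inhibitor induced by wounding, differed among themselves from -1.17 to 1.41, and 0 of 7 passed; with the replicate block 2 were lower, beside 7.93% of all spots.

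SS16, a sucrose synthase, which cleaves sucrose on its way to starch, had values of 0.48 and -0.20 in 1-5 mm tubers, against -6.64 and -6.44 in stolons. This difference of 6.68 ± 0.53 (SE, limma, adjusted p = 0.00391) came from 1 of its 3 tested spots. The other 2 spots, of another clone, differed by 0.35 and 0.36 and did not pass, so the clones of this gene disagree. No other of the 13 spots for sucrose cleavage and UDP-sugars passed. PAIN-1, the vacuolar acid invertase, was at 0.19 and 0.53 in tubers and -0.30 and -0.11 in stolons (limma, adjusted p = 0.23, and 0.137 with the replicate block).

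**Figure D2:**
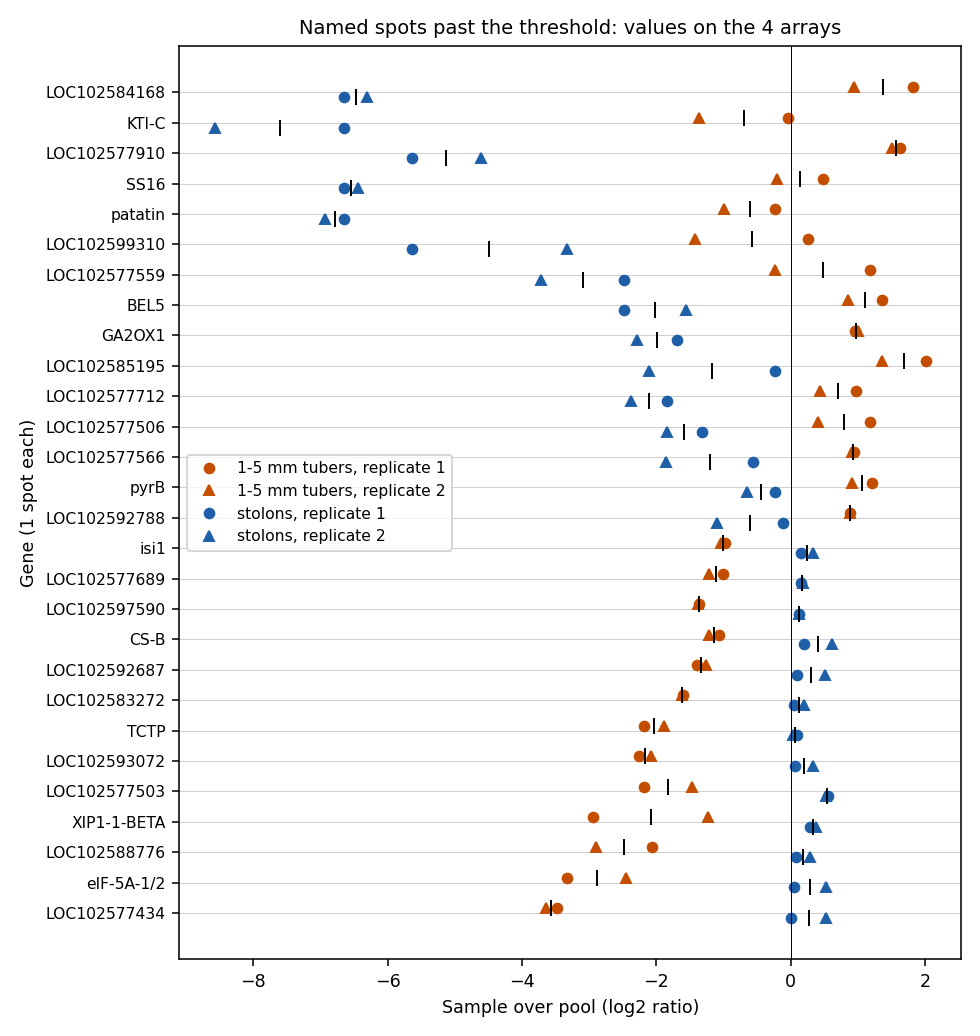
Values on the 4 arrays (x axis, log2 of sample over pool) of the 28 genes, 1 spot each (y axis), that passed the threshold and were named by rule, with 1-5 mm tubers in orange above stolons in blue, circles for replicate 1, triangles for replicate 2 and a black bar at the mean. The tuber and stolon values do not overlap, which is no separate result, since the genes were chosen by called spots alike in sign in both replicates. The stolon values of the genes that were lower in tubers lie between 0.01 and 0.62.

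Of the genes for starch synthesis and breakdown, 0 of 27 tested spots passed the threshold, yet 23 (85.2%) were higher in the tubers in both replicates and 1 was lower. Over all spots these shares were 31.9% and 30.3%. Their median difference was 1.57, beside 0.05 over all spots. GBSS-II, a starch synthase bound to the granule, had values of 0.76 and 0.36 in 1-5 mm tubers, against -0.97 and -2.04 in stolons. Its difference of 2.06 ± 0.48 lay just outside the threshold (SE, limma, adjusted p = 0.0505). GBSS, another granule-bound starch synthase, showed no such difference, with -0.004 at 1 spot and -0.07 at another (limma, adjusted p = 0.996 and 0.939). The starch phosphorylase glgP was at 1.27 and 0.40 in tubers and -1.12 and -1.43 in stolons at its spot of smallest p (limma, adjusted p = 0.0574). Its 3 tested spots ranged from -0.75 to 2.20, with 2 higher and 1 lower in both replicates. The disproportionating enzyme dpeP was at 0.98 and 0.47 in tubers and -0.64 and -2.85 in stolons (limma, adjusted p = 0.0663). The small subunit of ADP-glucose pyrophosphorylase, agpS2, which makes the sugar donor of starch, differed by 0.91 ± 0.27 (SE, limma, adjusted p = 0.0858, 0.0456 with the replicate block and 0.190 with the 4 arrays alone). With the replicate as a block, 15 of the 27 spots were called higher and 0 lower, beside 11.3% and 7.93% of all spots.

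The list of hormone and tuber induction genes had 5 of 13 spots higher and 0 lower, all of BEL5 and GA2OX1, beside 4.09% and 2.09% of all spots. GA2OX1, a gibberellin 2-oxidase that inactivates gibberellins, had values of 0.96 and 1.00 in 1-5 mm tubers, against -1.69 and -2.28 in stolons. The tubers lay above the pool and the stolons below it on every array. The difference was 2.97 ± 0.63 (SE, limma, adjusted p = 0.0348), a 7.82-fold difference, and both spots of the gene passed. It did not pass with the 4 arrays alone (limma, adjusted p = 0.058) or without any 1 of the 4 arrays, which gave differences from 2.67 (without stolon replicate 2) to 3.27 (without stolon replicate 1). BEL5 had values of 1.36 and 0.86 in 1-5 mm tubers, against -2.47 and -1.55 in stolons. Its difference was 3.12 ± 0.68 (SE, limma, adjusted p = 0.0378), and 3 of its 4 spots passed, from 2 clones. It too did not pass with the 4 arrays alone (limma, adjusted p = 0.0704) or without any 1 array, which gave differences from 2.66 (without stolon replicate 1) to 3.58 (without stolon replicate 2). IAA2, of the auxin-responsive Aux/IAA family, was lower in tubers in both replicates, at -2.25 and -0.58, against 0.11 and 0.15 in stolons. It did not pass (limma, adjusted p = 0.343, 0.0391 with the replicate block and 0.221 with the 4 arrays alone). Of 16 spots for transcription factors the 3 that passed were those of BEL5. MADS16, a MADS-box factor, was at 0.90 and 0.34 in tubers and -0.03 and -0.10 in stolons (limma, adjusted p = 0.239, and 0.118 with the replicate block).

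The other genes that were higher include pyrB, aspartate carbamoyltransferase of pyrimidine synthesis, with 1.21 and 0.92 in 1-5 mm tubers, against -0.23 and -0.64 in stolons. Its difference was 1.50 ± 0.30 (SE, limma, adjusted p = 0.0289) in 1 clone, both spots of which passed, while the 2 spots of another clone differed by -0.16 and -0.39 and did not. Of the 15 genes named as higher, 9 carry only a locus identifier and differed by between 1.49 and 7.86. The largest difference was that of LOC102584168, with 1.82 and 0.94 in tubers, against -6.64 and -6.30 in stolons (7.86 ± 0.60, SE, limma, adjusted p = 0.00332). CYP74D2, a divinyl ether synthase of the oxylipin pathway, was at 1.01 and -0.52 in tubers and -1.22 and -3.62 in stolons (limma, adjusted p = 0.0836, 0.0239 with the replicate block and 0.197 with the 4 arrays alone). ADH1, alcohol dehydrogenase, shows a difference carried by 1 replicate, 0.56 in replicate 1 and 4.62 in replicate 2 (limma, adjusted p = 0.256, and 0.157 with the replicate block).

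Among the genes that were lower, eIF-5A-1/2, a translation factor that carries the modified amino acid hypusine, had values of -3.32 and -2.44 in 1-5 mm tubers, against 0.06 and 0.53 in stolons. The difference was -3.18 ± 0.69 (SE, limma, adjusted p = 0.0376), and it did not pass with the 4 arrays alone (limma, adjusted p = 0.0682) or without any 1 array. It was the only 1 of 15 spots for translation and ribosomes that passed. Of the 15 spots, from 8 clones, 13 (86.7%) were lower in both replicates and 0 higher, beside 30.3% and 31.9% of all spots. Their median was -0.82. With the replicate block 1 of them was called lower and 0 higher, beside 7.93% and 11.3% of all spots. RPL27, a protein of the large ribosomal subunit, was at -0.76 and -0.81 in tubers and 0.03 and 0.18 in stolons (limma, adjusted p = 0.194, and 0.0554 with the replicate block). TCTP, a conserved protein linked to growth, had values of -2.18 and -1.88 in 1-5 mm tubers, against 0.10 and 0.04 in stolons. Its replicates were close together, its difference was -2.10 ± 0.25 (SE, limma, adjusted p = 0.00611), and 3 of its 4 spots passed. It did not pass with the 4 arrays alone (limma, adjusted p = 0.0717), without tuber replicate 1 (0.0566) or without stolon replicate 2 (0.0626).

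XIP1-1-BETA, of the X intrinsic proteins, a group of aquaporins, had values of -2.94 and -1.23 in 1-5 mm tubers, against 0.29 and 0.38 in stolons. Its difference was -2.42 ± 0.56 (SE, limma, adjusted p = 0.0442), and its 2 spots were the only ones called among 20 for aquaporins, proton pumps and ion channels. Leaving out tuber replicate 1 gave -1.56 and leaving out tuber replicate 2 gave -3.27, and of the 4 fits without 1 array it passed only in the one without tuber replicate 2; with the 4 arrays alone the adjusted p of limma was 0.135. CS-B, a cysteine synthase, was at -1.06 and -1.21 in tubers and 0.20 and 0.62 in stolons at the 1 of its 10 spots that passed (-1.55 ± 0.32, SE, limma, adjusted p = 0.0398). The 10 spots came from 5 clones and ranged from -1.56 to 1.73, so the clones disagree in direction. The gene isi1 was at -0.97 and -1.04 in tubers and 0.15 and 0.34 in stolons (-1.25 ± 0.29, SE, limma, adjusted p = 0.0433), and both its spots passed. The other 8 genes named as lower carry only a locus identifier and differed by between -1.28 and -3.83 at the spot that stood for each. LOC102577503, 1 of these, had 4 tested spots from 3 clones, which ranged from -2.37 to 1.20. Only 1 of them was lower in both replicates and 3 were higher, and the gene mean differed by -0.05, so its spots disagree in direction. FLS, flavonol synthase, had tuber values of -4.06 and -7.67, against 0.21 and 0.17 in stolons. The difference of -6.06 ± 1.43 did not pass (SE, limma, adjusted p = 0.0535, 0.00396 with the replicate block and 0.100 with the 4 arrays alone). The spots of the other FLS clones differed by between -0.54 and -0.85.

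Genes of photosynthesis, which also mark green tissue, were lower in the tubers in both replicates at 11 of 15 spots (73.3%) and higher at 0, beside 30.3% and 31.9% of all spots, and 0 passed the threshold. Their median was -1.62, with a median of -0.47 in replicate 1 and -2.80 in replicate 2. With the replicate block 1 of the 15 spots, which came from 8 clones, was called lower and 0 higher. Over all spots these shares were 7.93% and 11.3%. PSBO, of the oxygen-evolving complex, was at -1.36 and -1.98 in 1-5 mm tubers, against 0.43 and 0.43 in stolons (limma, adjusted p = 0.074, 0.0441 with the replicate block and 0.0813 with the 4 arrays alone). The light-harvesting protein gene cab1 was at -1.06 and -2.40 in tubers and 0.26 and 0.51 in stolons (limma, adjusted p = 0.121, and 0.0638 with the replicate block). PSBR, also of photosystem II, differed by between -2.60 and 0.20 over its 8 tested spots, of which 5 were lower in both replicates, and psbP by -0.80 and -0.65 at 2 spots. The storage genes fitted the tissue labels only in the direction chosen above. CYCD3.2, a D-type cyclin taken as a marker of dividing tissue, overlapped, at 0.24 and 0.74 in tubers and 0.47 and -0.14 in stolons. The genes xth1, PR1B, chitinase and PIN2K, taken as markers of vascular tissue, defence or wounding, had no spot with a value on all 4 arrays, and the part of other tissues in the results was not tested.

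**Figure D3:**
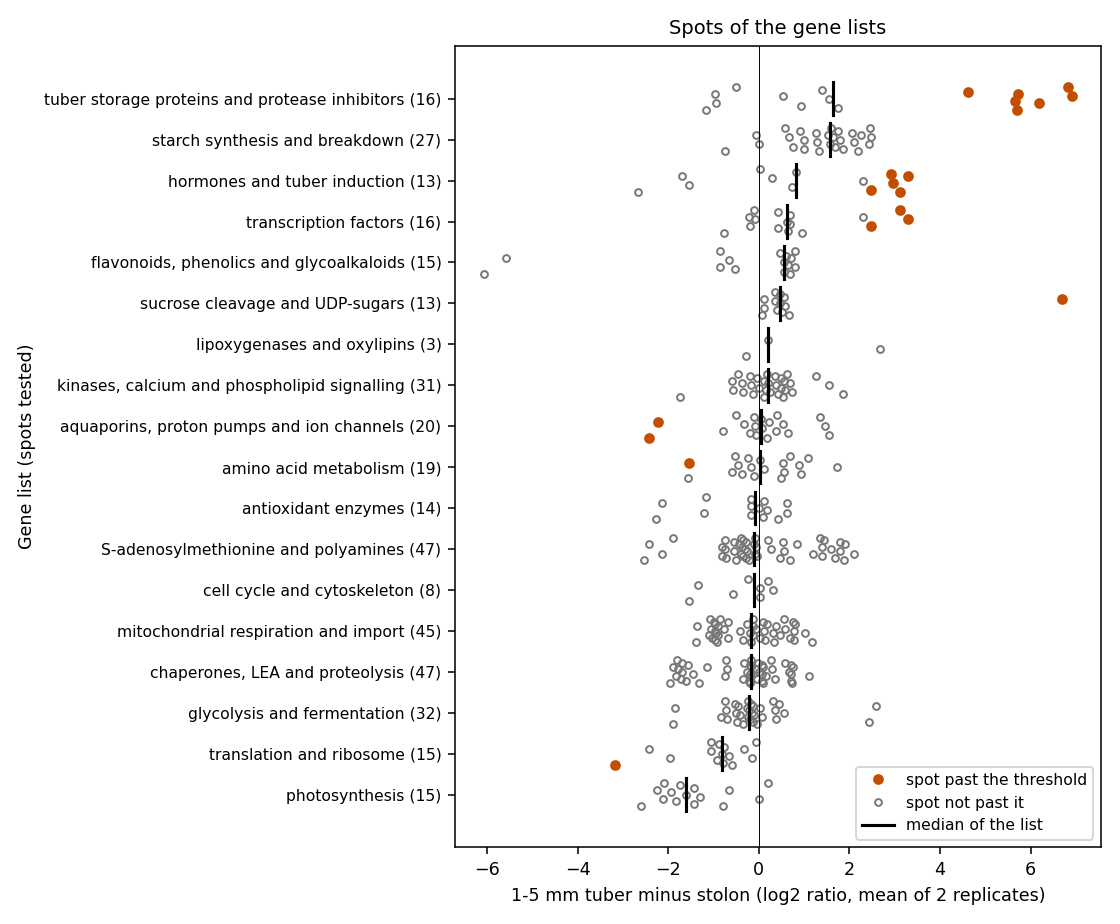
Difference of 1-5 mm tubers minus stolons (x axis, log2 ratio, mean of 2 replicates) for each tested spot of 18 gene lists (y axis, number of spots in brackets), ordered by median, with filled points for spots past the threshold and a black line at the median. The starch list has a median of 1.57 and no filled point, the storage list has 7 filled points, and the photosynthesis list has a median of -1.62.

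The remaining groups held no called gene beyond those above. Over all spots 6.18% passed, and 31.9% were higher and 30.3% lower in both replicates. With the replicate block, 11.3% of all spots were called higher and 7.93% lower. Of 45 spots for mitochondrial respiration and import 0 passed, with 11 higher and 17 lower in both replicates. Of 47 spots for S-adenosylmethionine and polyamines 0 passed, with 11 higher and 12 lower; METK1, S-adenosylmethionine synthetase, ranged from -2.53 to 1.88 over its 16 spots. Of 32 spots for glycolysis and fermentation 0 passed, with 5 in each direction. Of 47 spots for chaperones, LEA proteins and proteolysis 0 passed, with 1 higher and 15 lower, and of 31 spots for kinases, calcium and phospholipid signalling 0 passed, with 12 higher and 4 lower. RBOHC, an NADPH oxidase, was at 1.54 and 0.60 in tubers and -1.25 and -0.34 in stolons (limma, adjusted p = 0.126, 0.0358 with the replicate block and 0.144 with the 4 arrays alone). Of 19 spots for amino acid metabolism the 1 that passed was that of CS-B, and 0 passed of 15 for flavonoids, phenolics and glycoalkaloids, 14 for antioxidant enzymes, 8 for the cell cycle and cytoskeleton, 3 for lipoxygenases and oxylipins and 2 for the cell wall. CAT1, a catalase that removes hydrogen peroxide, was at -1.36 and -2.90 in tubers and 0.03 and 0.23 in stolons (limma, adjusted p = 0.302, 0.0442 with the replicate block and 0.135 with the 4 arrays alone). With the block, between 0 and 5 spots of each list in this paragraph were called, of which METK1 and the other genes for S-adenosylmethionine and polyamines had 2 higher and 3 lower.

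Some spots had values in 1 tissue only. Both stolon arrays and neither 1-5 mm array had a value at 474 spots, among them both spots of BCAT2, a branched-chain aminotransferase, and both of the invertase gene InvCD111. Both 1-5 mm arrays and neither stolon array had a value at 104 spots. The rule that removed values is not given in the sources used here, so a missing value is no level.

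Against the 4 larger size classes, 1-5 mm tubers differed at 0 of 10464 spots (0.0%) with limma, and 612 had an unadjusted p under 0.05. This comparison shares its 1-5 mm arrays with the one against stolons. A fit to the 10 tuber arrays with the replicate as a block, added after the data were seen, called 748 spots higher (7.15%) and 656 lower (6.27%) in 1-5 mm tubers; with the direction turned these would be 656 higher and 748 lower. Of 452 spots called higher than in stolons, this fit placed 27 above and 51 below the larger tubers, with a median difference of 0.10. Of 229 spots called lower than in stolons it placed 21 above and 13 below, with a median of -0.05. The genes named next were chosen after their values were seen.

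Storage genes were lower in 1-5 mm tubers than in larger ones in the fit to the tuber arrays. Patatin was at -0.23 in 1-5 mm tubers of replicate 1 and reached 1.33 in those of 26-35 mm. In replicate 2 it had no value at 16-25 or 26-35 mm. Its difference from the larger classes was -1.08 (limma, adjusted p = 0.0125). KTI-C was lower at 5 of its spots, by between -1.96 and -3.27, PIN-II at 5, by between -1.60 and -2.13, and API at 2, by -4.80 and -5.06. GBSS-II was lower at 4 spots, by between -0.71 and -0.99, and UGPase, which makes UDP-glucose, at 2, by -1.01 and -1.14. GA2OX1 and BEL5 differed from the larger classes by -0.37 and -0.15 and did not pass (limma, adjusted p = 0.469 and 0.696).

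XIP1-1-BETA lay between stolons and larger tubers. Its values were -2.94 and -1.23 in 1-5 mm tubers and between -3.02 and -4.32 in the larger classes. In the fit to the tuber arrays it was 1.41 higher in 1-5 mm than in larger tubers (limma with the replicate block, adjusted p = 0.0184). In that fit VPE2 was also higher in 1-5 mm than in larger tubers, by 3.57 and 3.33 at 2 spots. STUGE51, a UDP-glucose epimerase, was higher by between 2.32 and 2.49 at 4 spots. METK1 was higher by between 0.68 and 1.04 at 11, and PHA2, a plasma membrane proton pump, by between 0.85 and 0.98 at 6. PSBR was higher by between 0.96 and 1.43 at 6 spots. Against stolons, these genes other than XIP1-1-BETA had no called spot.

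**Figure D4:**
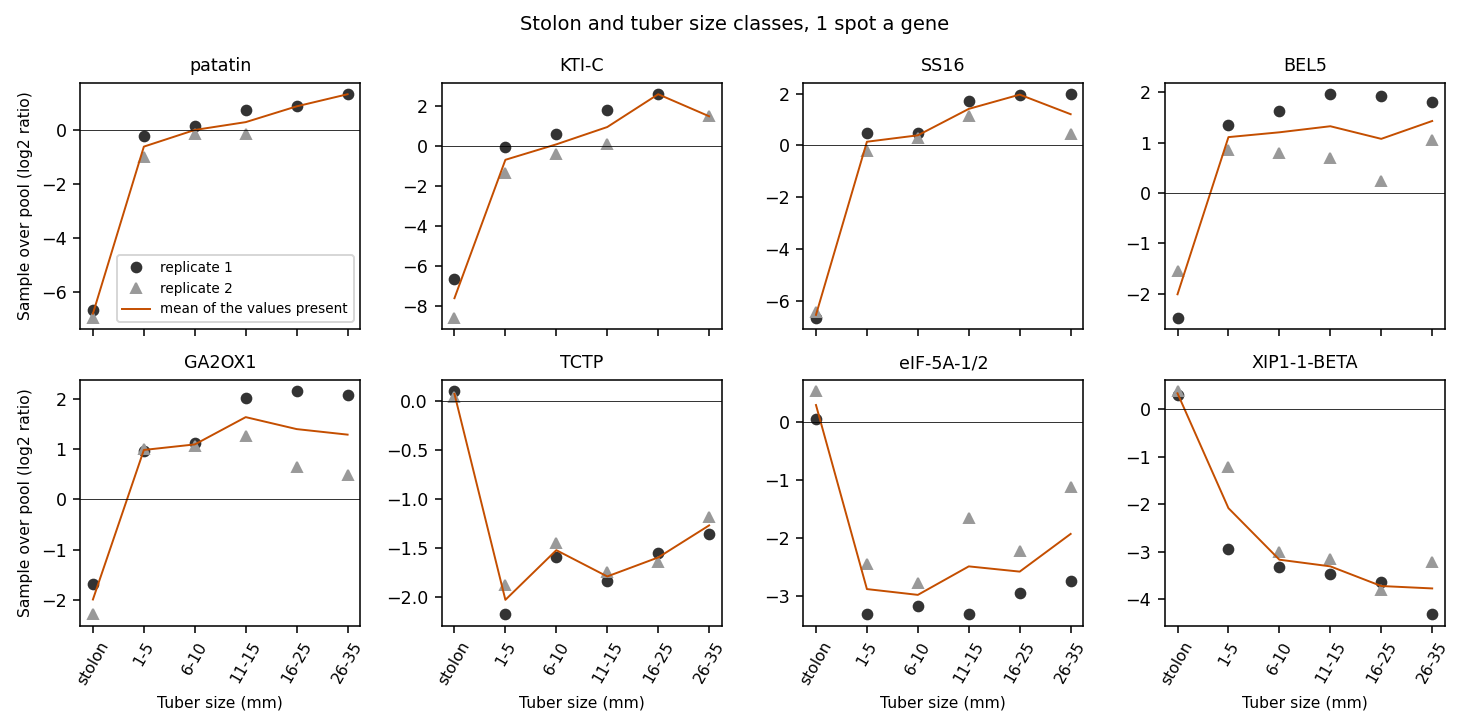
Values (y axis, log2 of sample over pool) of 8 genes, 1 spot each, in stolons and the 5 tuber size classes (x axis, mm), with circles for replicate 1, triangles for replicate 2 and a line through the mean of the values present. Patatin, KTI-C and SS16 lie below -6 in stolons and are higher at 16-25 mm than at 1-5 mm in replicate 1. In replicate 2 they have no value at 16-25 mm, and patatin none at 26-35 mm. The SS16 spot shown was -1.01 lower in 1-5 mm than in larger tubers in the fit to the tuber arrays. A spot of the other SS16 clone was 0.75 higher there. XIP1-1-BETA is lowest in the larger tubers.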

How the data were processed

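The deposited values are log2 ratios of 2-colour arrays, 1 column an array; they equal the log2 of a ratio rounded to 2 decimals, with a lowest ratio of 0.01. Per the submitters' processing notes limma was used, with no version named; the sources used here do not give background correction, normalization or filtering. Values were used as deposited, with replicate 2 of the growth chamber arrays multiplied by -1. Both groups hold both dye orientations.

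Spots with a value on all 4 arrays were tested with lmFit and eBayes of limma 3.58.1 in R 4.3.3, over the 12 growth chamber arrays, which share the spread, with stolons as baseline. A spot was called at a Benjamini-Hochberg adjusted p below 0.05 over all tested spots. The fit was also run on simulated data, with no outcome given here. That run is no check on the p-values or calls, since it was not shown to hold the deviation that tuber classes share. Gene names came from the platform annotation, with 430 of 430 genes found in the SolTub_3.0 gene table. For each gene with a called spot alike in sign in both replicates, its spot of smallest p stood for it. Up to 15 a direction were named by largest change, with up to 4 genes of each of 20 lists by smallest p. Lists of symbols were assigned by hand once the annotation had been seen, and the comparison, members and lists were chosen with earlier results of these data known.

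Per the labels, a replicate number stands for 1 of 2 successive plantings and for a dye orientation, so it pairs samples. Deviations correlated at -0.40 between 1-5 mm tubers and stolons and at 0.85 to 0.87 for 1-5 mm with larger tubers. Alternatives were the replicate block, fewer arrays, filters, centring, quantile normalization, array weights, a robust prior, gene means, the other direction and leaving out each array.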

Additional observations from a re-analysis of the deposited data

How the results depend on the processing

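The count of 688 spots that differ between 1-5 mm tubers and stolons moved by more than 1.5 times under several alternatives. It was 2143 with the replicate as a block, 3939 with a block that crosses the stolon numbers (an alternative added after seeing the data), 58 with the 4 arrays alone, 411 with those and the replicate block, 2433 after quantile normalization, 1423 with array weights, and 16 of 369 genes with gene means. Leaving out an array gave between 38 and 395 spots: 38 without stolon replicate 2, 40 without tuber replicate 1, 130 without tuber replicate 2 and 395 without stolon replicate 1. Turning the direction gave 233 higher and 455 lower. Filters on missing values, leaving out spots at the lowest ratio, median centring and a robust prior gave between 627 and 766. The count of 0 against larger tubers stayed at 0 under filters, centring, quantile normalization, array weights, a robust prior and without either 1-5 mm array, and was 80 with the replicate block, 270 with the crossed block and 1404 with the block and no stolon arrays (the last 2 added after seeing the data). Spots alike in sign in both replicates were between 6903 and 7069. Of the 28 named genes, 28 passed with the replicate block, 28 with the crossed block, 28 with array weights, 27 with median centring, 16 with gene means, 14 with the 4 arrays and the block and 5 with the 4 arrays alone. Without 1 array they kept their direction, and 13 passed without stolon replicate 1, 8 without tuber replicate 2, 4 without tuber replicate 1 and 4 without stolon replicate 2; patatin, SS16, LOC102577910 and LOC102584168 passed in all of these. The gene mean of CS-B over its 10 spots was 0.13 in place of -1.55, since its clones disagree. The cause of the other changes was not tested.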
